A study of Mus musculus with 4 samples.

Results

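The cells described here are luminal mammary epithelial cells, taken 2 weeks after loss of Trp53 and Brca1 was induced, that carried transcripts of 3 interferon targets. Of 1453 barcodes in the 2 weeks library, 1301 had at least 500 genes and at most 10% mitochondrial UMIs (unique molecular identifiers, each counting 1 captured transcript). Of these, 1133 had at least 3 UMIs of the luminal keratins Krt8 and Krt18 together and no UMI of the leukocyte gene Ptprc. Members of the interferon class were the 404 keratin cells with at least 3 UMIs of Cxcl9, Ido1 and Ubd summed, 35.7% of the keratin cells (95% Clopper-Pearson interval 32.9 to 38.5%) and 404 of 10781 barcodes in the whole series. They were compared with the 547 keratin cells of the same library that had no UMI of these genes, and 182 cells with 1 or 2 such UMIs lay between.

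The series holds 4 single-cell RNA-seq libraries from female mice of mixed genetic background with the genotype Trp53L/L;Brca1L/L;Rosa26-Stop-YFP. In all of them an adenovirus carrying Cre under a keratin 8 promoter (Ad-K8-Cre) had been injected into the mammary ducts, a design that deletes the floxed genes and switches on the YFP reporter in the luminal cells it infects. The 2 weeks library came from sorted YFP+ cells, the 5 months library from sorted YFP+ cells together with CD45+ leukocytes, both timed from the injection, and the remaining libraries from DAPI- live cells of 2 tumours. No library came from mice without Cre, without the virus or with intact Trp53 and Brca1, and each time point is 1 library, for which the number of mice is not given in the sources used here. Differences between members and comparison cells are therefore described without a test, every interval covers counting error only, and effects of the gene deletions, of the virus, of the injection and of the animal cannot be told apart.

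Interferons are secreted cytokines. Interferon gamma, made mainly by T cells and NK cells, acts through the receptor subunits Ifngr1 and Ifngr2 and the kinases Jak1 and Jak2, and its target genes often carry gamma-activated sites (GAS). Targets of type I and type III interferons often carry interferon-stimulated response elements (ISRE), which a complex with Irf9 binds. The targets include chemokines for T cells, guanylate-binding proteins, antiviral proteins and the machinery that presents antigens on MHC molecules. Among the genes that chose the members, Cxcl9 is a chemokine for cells bearing the receptor Cxcr3, Ido1 is an enzyme that degrades tryptophan, and Ubd (FAT10) is a ubiquitin-like modifier.

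The promoters below are shown because the members' genes differ in whether the 250 bases before their start hold a letter match to either kind of element. They come from the RefSeq promoter table for GRCm38.p6, the build of the files, and are printed 5′ to 3′ on the strand of the gene. Motif matches are in capitals. The motifs searched on both strands were GAS, written TTCNNNGAA, which reads the same on both strands, and ISRE, written as GAAA, any 2 bases and GAAA again. Cxcl9 lies on the minus strand (chr5:92328080-92328329), Ubd on the plus strand (chr17:37193642-37193891), Cxcl10 on the minus strand (chr5:92348890-92349139), Gbp2 on the plus strand (chr3:142620413-142620662), Igtp on the plus strand (chr11:58199306-58199555), Psmb8 on the plus strand (chr17:34197945-34198194) and Isg15 on the minus strand (chr4:156200819-156201068).
Cxcl9: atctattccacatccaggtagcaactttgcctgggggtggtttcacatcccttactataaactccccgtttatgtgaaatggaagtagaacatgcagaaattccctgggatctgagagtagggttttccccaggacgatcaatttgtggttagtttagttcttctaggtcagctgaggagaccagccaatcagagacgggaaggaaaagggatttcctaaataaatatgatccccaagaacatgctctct
Ubd: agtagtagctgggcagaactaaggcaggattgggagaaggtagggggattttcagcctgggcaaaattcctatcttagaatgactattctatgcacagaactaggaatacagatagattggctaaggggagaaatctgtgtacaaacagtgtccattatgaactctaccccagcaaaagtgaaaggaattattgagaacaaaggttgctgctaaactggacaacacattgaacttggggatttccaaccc
Cxcl10: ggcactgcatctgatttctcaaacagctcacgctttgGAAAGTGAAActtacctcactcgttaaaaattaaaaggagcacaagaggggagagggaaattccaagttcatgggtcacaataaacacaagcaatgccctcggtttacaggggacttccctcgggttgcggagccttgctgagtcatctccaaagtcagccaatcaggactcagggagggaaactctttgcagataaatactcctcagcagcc
Gbp2: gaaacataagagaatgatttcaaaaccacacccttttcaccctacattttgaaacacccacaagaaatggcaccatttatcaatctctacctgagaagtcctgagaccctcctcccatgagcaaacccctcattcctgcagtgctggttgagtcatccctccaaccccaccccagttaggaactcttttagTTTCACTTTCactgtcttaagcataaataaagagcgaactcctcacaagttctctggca
Igtp: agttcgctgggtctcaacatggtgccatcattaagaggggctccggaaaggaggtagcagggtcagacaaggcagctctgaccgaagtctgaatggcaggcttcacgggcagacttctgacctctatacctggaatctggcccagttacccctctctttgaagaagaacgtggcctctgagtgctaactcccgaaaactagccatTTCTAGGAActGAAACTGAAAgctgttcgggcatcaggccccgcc
Psmb8: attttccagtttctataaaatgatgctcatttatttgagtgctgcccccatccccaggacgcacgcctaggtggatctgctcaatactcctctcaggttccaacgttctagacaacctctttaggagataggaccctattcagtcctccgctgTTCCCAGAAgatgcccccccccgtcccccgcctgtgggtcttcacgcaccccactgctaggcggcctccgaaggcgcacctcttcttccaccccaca
Isg15: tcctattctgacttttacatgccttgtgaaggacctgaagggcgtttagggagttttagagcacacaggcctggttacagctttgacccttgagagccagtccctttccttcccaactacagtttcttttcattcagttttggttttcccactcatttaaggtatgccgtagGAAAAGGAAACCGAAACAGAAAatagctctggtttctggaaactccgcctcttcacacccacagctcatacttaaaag

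Neither exact motif was found in the Cxcl9 and Ubd windows. Cxcl10 had an ISRE match that began 213 bases before the start, Gbp2 had one on the opposite strand at 59 bases, and Isg15 had 3 that overlap one another, at 78, 72 and 66 bases. Igtp had a GAS match at 45 bases followed by an ISRE match at 34 bases, which do not overlap, and Psmb8 had a GAS match at 97 bases. Over all 27025 genes in the promoter table, 8.13% had a GAS match, 3.46% an ISRE match and 11.1% either. Of the 197 genes that were at least 2-fold higher in the members, 140 were in the table, and 10.7% of these had a GAS match, 17.9% an ISRE match and 25% either. Among the 4267 measured genes in the table the same shares were 6.63%, 3.35% and 9.54%, and among 25 of the 39 lower genes they were 4%, 0% and 4%. A match describes letters in this window and is not evidence of binding. A window without a match may still hold an element, since only these exact letters were searched.

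The values that chose the members varied widely from cell to cell. Ubd (chr17:37193892-37196101) was detected in 378 of the 404 members (93.6%), with a median of 8 UMIs and at most 85. Cxcl9 (chr5:92321331-92328079) was detected in 282 members (69.8%), with a median of 2 UMIs and at most 114. Ido1 (chr8:24584133-24596952) was detected in 217 members (53.7%), with a median of 1 UMI and at most 14. All 3 were found together in 141 members, Cxcl9 and Ubd without Ido1 in 126, Ido1 and Ubd without Cxcl9 in 57, and Ubd alone in 54. The 40 highest members for each gene held 54.9% of all Cxcl9 UMIs, 44.0% of Ido1 UMIs and 36.4% of Ubd UMIs, so Cxcl9 was the most unevenly shared of the 3.

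The threshold of 3 UMIs cut through a continuous range. Just outside it, 62 keratin cells had 2 rule UMIs and 120 had 1, and just inside it 39 had 3 and 30 had 4. At the other end, 88 members had 20 to 49 and 45 had 50 or more, with a maximum of 156 and a median of 12.5. Members were sequenced more deeply than the comparison cells, with a median of 4819 against 3941 UMIs and 1783 against 1455 genes per cell, and with 4.48% against 5.26% mitochondrial UMIs. When each cell was thinned to 2000 UMIs, which left out 187 of the 1301 cells, 260 of 960 keratin cells met the rule (27.1%, 24.3 to 30.01%).

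**Figure D1:**
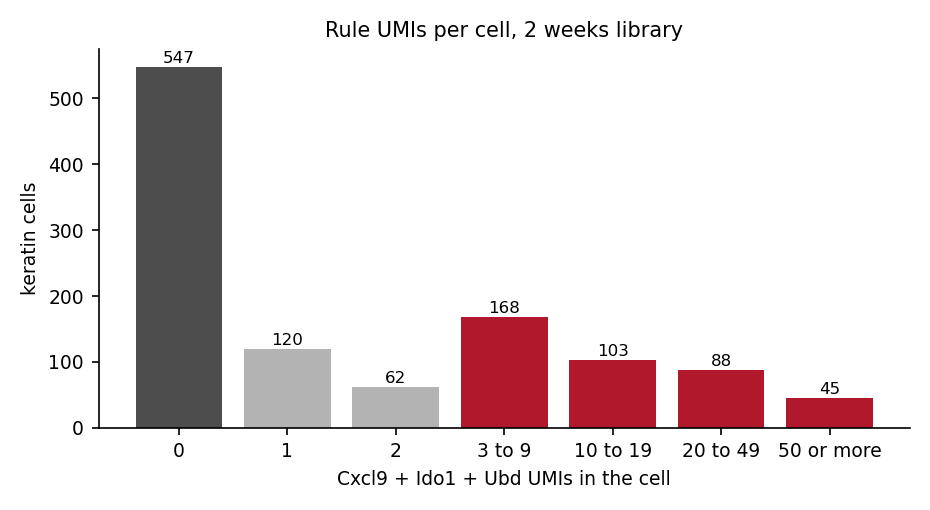
Number of 2 weeks keratin cells (vertical axis) by the summed UMIs of Cxcl9, Ido1 and Ubd in the cell (horizontal axis, classes of unequal width); dark grey marks the 547 comparison cells, light grey the cells with 1 or 2 UMIs and red the 404 members. The members spread from 3 to over 50 UMIs, with 168 cells at 3 to 9 and 45 at 50 or more.

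The label of luminal cells was set beside genes that the rule did not count, though Krt8 and Krt18 among them were part of the gate. Epcam, an adhesion molecule of epithelial cells, was detected in 392 of the 404 members. None of 15 measured genes for luminal keratins and cell junctions, Krt8 and Krt18 included, differed by 2-fold, with a median log2 ratio of 0.06. Over all measured genes only 3.58% were 2-fold higher and 0.708% lower, so none among 15 says little about the label. Krt8, part of the gate in both classes, stood at 2858 CPM (the UMIs of a gene per 1000000 UMIs of the class) in members and 2935 in comparison cells. The fourth marker gene, Gbp2 (chr3:142620663-142638008), a guanylate-binding GTPase induced by interferon, was not part of the rule. It was found in 351 members (86.9%) and in 24.7% of comparison cells, and after thinning in 73.6% (68.8 to 78.1%) and 15.7% (12.5 to 19.4%).

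Pan-leukocyte and T cell transcripts were low in the members, while the summed macrophage and dendritic cell lists were higher through Plac8, Cd14 and the class II genes. Of 12 pan-leukocyte genes, 6 were at 0 in members, among them Cd52, Cd53, Tyrobp and Cd37. Ptprc is also among these 6, and the gate fixed it at 0 in every class. The summed level of the list was 47.1 CPM in members, 37.1 CPM in comparison cells and 26.3 CPM in cells with 1 or 2 rule UMIs. Lcp1, an actin-bundling protein that epithelial cells can also express, made up 61 of the members' UMIs and 68 of the comparison cells' UMIs. Of 16 T cell and NK cell genes in the files, 11 were at 0 in members, including Cd3e, Nkg7, Gzmb and Prf1, and their sum was 5.23 against 4.16 CPM. The 11 dendritic cell genes summed to 680.2 CPM in members and 28.3 in comparison cells. Of these, 2 of 2 measured genes were higher, the class II genes H2-Aa and H2-Ab1 given further on. At 0 in members were 6 genes, among them Flt3, Clec9a and Itgax. The 14 macrophage and monocyte genes summed to 1411 against 799 CPM, with 1 of 2 measured genes higher, Cd14 at 288 against 127 CPM beside Plac8 at 1112 against 668 CPM, and 5 at 0 in members, among them Adgre1, Csf1r and Mrc1. The part of other cell types in these sums was not tested. Removing every cell with a UMI of the 12 pan-leukocyte genes, Cd3e, Lyz2 or C1qa left 327 members and 477 comparison cells. In these, 198 genes were higher and 36 lower, against 197 and 39. The other macrophage, dendritic and T cell genes, such as Plac8, Cd14 and H2-Aa, were not part of this filter.

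The interferons themselves were hardly captured. The whole 2 weeks library held 1 UMI of Ifng, 1 of Ifnb1, 2 of Ifnl2 and 7 of Ifnl3, and none of Cxcr3. Members held 3 Ifnl3 UMIs and comparison cells 3. The sort took YFP+ cells, and the source of any interferon was not tested. As a check of the targeted genes, Trp53 stood at 56.6 CPM in members and 55.4 in comparison cells, and Brca1 at 4.28 and 4.58 CPM. In keratin cells without rule UMIs, Trp53 stood at 41.1 CPM in the 5 months library, at 7.96 CPM in tumour 1 and at 52.9 CPM in tumour 2. Whether these 3′ tags lie in the deleted exons is not given in the sources used here, so they do not check the deletion.

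Members and comparison cells differed most in interferon targets, antigen presentation genes and T cell chemokines, and the direction was mostly upward. With 2103927 UMIs in members and 2401699 in comparison cells, 5505 of 27998 genes reached 20 CPM in at least one class and were compared after adding 1 CPM. Of these, 197 (3.58%) were at least 2-fold higher in members and 39 (0.708%) at least 2-fold lower, leaving out the 3 genes of the rule. The median log2 ratio of all measured genes was 0.02. Because the rule chose the cells on part of the same response, these counts describe the classes. The gene lists overlap, so that Irf7 and a few others count in more than 1 list.

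**Figure D2:**
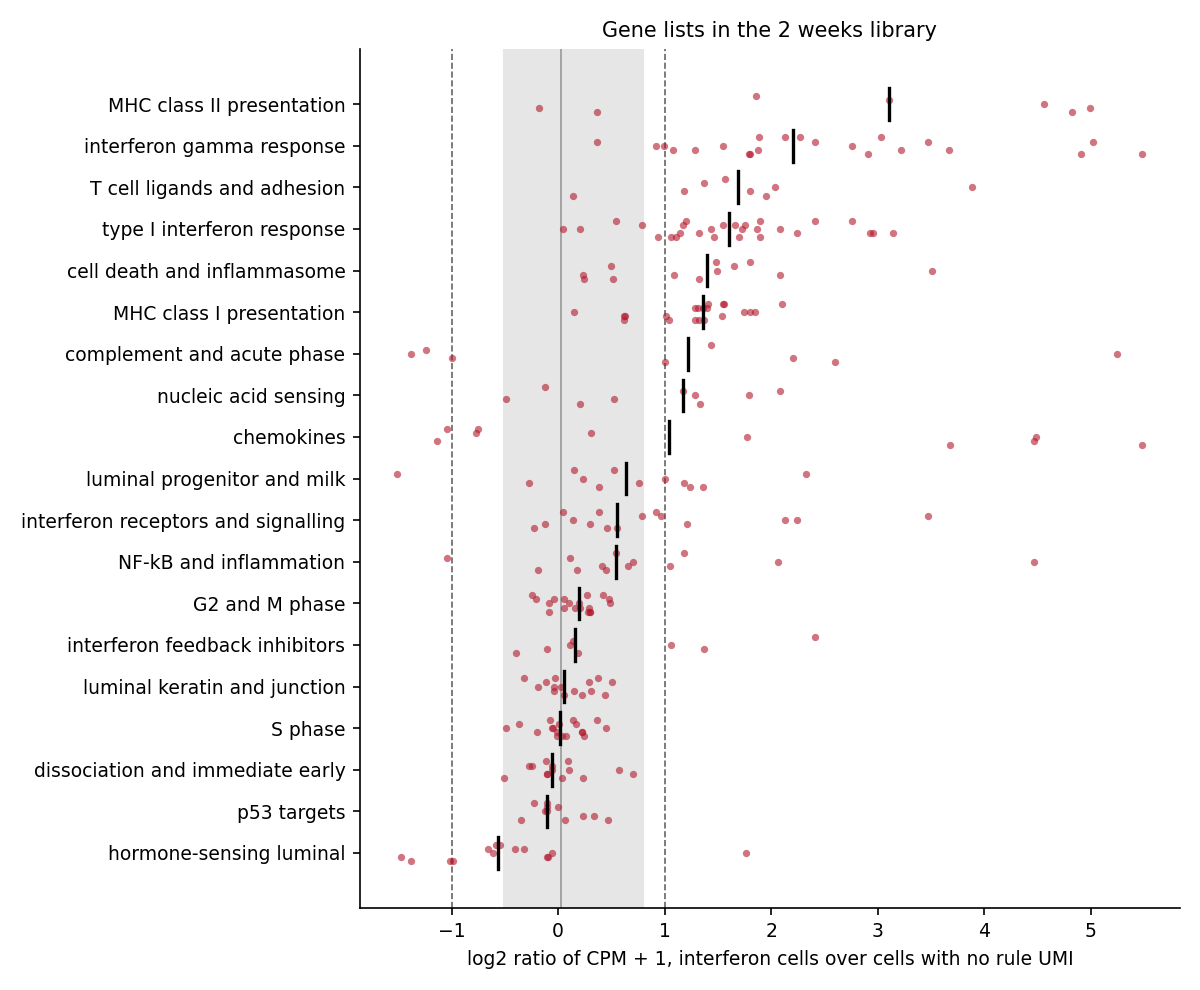
Log2 ratio of CPM + 1, members over comparison cells, for each measured gene (red points) of the lists with at least 7 measured genes; black bars are list medians, dashed lines mark 2-fold, and the grey band spans the 5th to 95th percentile of all measured genes, from -0.50 to 0.79. The MHC class II, interferon gamma, T cell ligand and type I interferon lists have medians between 1.61 and 3.11, and the cell cycle, p53, immediate early and keratin lists lie near 0.

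Among genes that respond to interferon gamma, 19 of 22 measured were at least 2-fold higher and none lower, with a median log2 ratio of 2.20. Cxcl10, a second chemokine for Cxcr3, stood at 716 CPM (681 to 753) in members and 14.99 (10.5 to 20.8) in comparison cells, a log2 ratio of 5.49. Gbp2 stood at 1329.9 CPM (1281 to 1380.1) against 103.7 (91.2 to 117.4), a log2 ratio of 3.67. The related GTPases Gbp4 and Gbp8 had log2 ratios of 5.02 and 4.91, on 7 and 4 comparison UMIs. The immunity-related GTPases Iigp1, Igtp and Ifi47, which act on vacuoles that hold intracellular microbes, stood at 711, 250.5 and 181 CPM against 193, 32.5 and 21.2. Gbp genes and the related GTPases form families of similar sequence, and how reads shared by copies were counted is not given in the sources used here. Irf1, an early transcription factor of the response, stood at 56.1 against 29.1 CPM, just under 2-fold.

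Of the genes best known from the type I response, 23 of 28 measured were at least 2-fold higher and none lower, with a median log2 ratio of 1.61. This median was smaller than that of the interferon gamma list. The 3 rule genes, left out of these counts, belong to the interferon gamma list and none to the type I list. The choice of cells therefore bears unequally on the lists, and their medians do not rank the responses. The largest ratios among the more abundant ones belonged to Ifi27l2a at 117 against 14.2 CPM, Ifit1 at 68.0 against 9.16 CPM, and Irf7, a transcription factor that amplifies the response, at 151 against 31.2 CPM. The ubiquitin-like modifier Isg15 stood at 232 CPM (212 to 253) against 67.9 (57.8 to 79.1). The membrane restriction factor Bst2 stood at 500.5 against 153 CPM. Irf9, the DNA-binding subunit of the complex that binds ISRE, stood at 40.9 against 39.6 CPM. Zbp1, a nucleic acid sensor that can trigger cell death, stood at 167 against 38.7 CPM, and 5 of 9 measured genes for nucleic acid sensing were 2-fold higher with a median log2 ratio of 1.18.

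Receptors and kinases differed less than their targets. Of 15 measured genes for interferon receptors and signalling, 4 were 2-fold higher and none lower, with a median log2 ratio of 0.55. They included Irf8 at 65.6 against 5.00 CPM, Irf7, and Ifngr1 at 43.7 (35.3 to 53.6) against 18.3 (13.3 to 24.6) CPM. By lineage, as scored further on, Ifngr1 stood at 24.9 (17.7 to 34.1) against 10.1 (6.34 to 15.3) CPM in hormone-sensing-scored cells and at 103 (77.2 to 135) against 111 (69.3 to 167) CPM in progenitor-scored cells, of which members held a larger share. Jak1 stood at 108 against 78.3 CPM. Of 8 feedback inhibitors, 3 were higher: Socs1, which blocks the JAK kinases, at 37.5 against 6.25 CPM, Il18bp and Usp18. Socs3, another inhibitor of that family, stood at 24.7 against 26.6 CPM.

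The antigen presentation machinery was higher from the proteasome to the cell surface. On the MHC class I side, 17 of 21 measured genes were 2-fold higher and none lower, with a median log2 ratio of 1.36. The class I heavy chains H2-K1 and H2-D1 stood at 3605 (3524 to 3687) and 5997 (5893 to 6103) CPM in members, against 1358 (1312 to 1405) and 2455 (2393 to 2518) in comparison cells. H2-T23, a nonclassical chain that binds an inhibitory receptor of NK cells, stood at 184 against 42.1 CPM. The immunoproteasome subunit Psmb8 stood at 1759.6 against 669 CPM, and the peptide transporter Tap1 at 125 against 35.4 CPM. B2m, the light chain, was already at 5706 CPM in comparison cells and stood at 8779 in members, below 2-fold. Class I heavy chains are near-identical copies, so the split of UMIs among them is uncertain.

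MHC class II genes, which leukocytes that present antigens usually express, had a median log2 ratio of 3.11, the largest among lists with at least 7 measured genes, with 5 of 7 measured genes 2-fold higher and none lower. Cd74, the invariant chain that guides class II molecules, stood at 1199 CPM (1153 to 1247) in members and 41.2 (33.5 to 50.2) in comparison cells. The class II chains H2-Aa and H2-Ab1 stood at 297 and 378 CPM, against 8.33 and 14.99. Cd74 was found in 57.2% of members and 5.48% of comparison cells, and after thinning in 45.9% and 3.45%. Ciita, the class II transactivator, had 1 UMI in members and 0 in comparison cells. In the 105 cells of the library without a Krt8 or Krt18 UMI, Cd74 was found in 21.9%.

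Ligands and chemokines that act on T cells were higher in part. Of 8 measured T cell ligands and adhesion molecules 7 were 2-fold higher and none lower, with a median log2 ratio of 1.69. Vcam1, an integrin ligand, stood at 44.7 against 2.08 CPM, the cytokine Il15 at 21.9 against 4.58 CPM, and Cd47, which inhibits phagocytosis, at 321 against 82.4 CPM. Cd274 (PD-L1), the ligand of an inhibitory T cell receptor, had 20 UMIs in 19 members and 6 UMIs in comparison cells, too few for the 20 CPM filter. Of 10 measured chemokines other than Cxcl9, 5 were higher and 2 lower. Ccl5 stood at 619.8 against 26.6 CPM, Ccl2 at 65.1 against 4.16 CPM and Cxcl16 at 154 against 44.1 CPM. Ccl20 had 64 UMIs in 11 members and 1 UMI in comparison cells. The neutrophil attractants Cxcl1 and Cxcl15 were lower in members, at 57.5 against 119.5 and at 74.6 against 165 CPM. By lineage, as scored further on, Cxcl1 stood at 37.1 against 60.2 CPM in hormone-sensing-scored cells, below 2-fold. In progenitor-scored cells it stood at 109 against 774 CPM, with 154 comparison UMIs in 10 cells. Cxcl15 stood at 89.5 against 181 CPM in hormone-sensing-scored and 31.8 against 20.1 CPM in progenitor-scored cells.

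Genes of cell death, inflammation and complement were also higher in part. Of 12 measured cell death and inflammasome genes 8 were 2-fold higher, with a median log2 ratio of 1.40: Casp12 stood at 39.0 against 2.50 CPM, the adaptor Pycard at 210.1 against 74.1 CPM, and Mlkl, the executor of necroptosis, at 43.7 against 19.99 CPM. Of 13 measured NF-kB and inflammation genes 4 were higher and 1 lower, with a median of 0.54. For tryptophan and kynurenine metabolism, 1 of 3 measured genes was higher, Wars, the tryptophan tRNA ligase that is itself an interferon target. Among 8 complement and acute phase genes, 5 were higher and 2 lower, with a median of 1.22 that was -0.99 among hormone-sensing-scored cells alone. Complement C3 stood at 93.6 against 14.6 CPM, and the fibrinogen chains Fgb and Fgg were lower, at 60.4 against 159 CPM and 202 against 479 CPM. Serping1, an inhibitor of complement C1, had 111 UMIs in members and 1 in comparison cells, a ratio whose counting interval runs from 22.3 to 5049.

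Cell cycle, p53 and stress lists did not separate the classes by 2-fold. None of 18 S phase, 19 G2 and M phase, 11 p53 target, 4 DNA damage and 14 immediate early genes was 2-fold higher or lower, and their medians lay between -0.10 and 0.20. Top2a, a topoisomerase of dividing cells, was found in 32.7% of members. The p53 target Cdkn1a, which halts the cell cycle, had a log2 ratio of -0.22, and Mdm2 one of 0.34. Over all measured genes only 3.58% were 2-fold higher and 0.708% lower, so none in lists of this size says little. The counts also moved with the setting. Thinning the same cells gave 1 S phase and 2 G2 and M phase genes higher. With the rule applied after thinning, 1 G2 and M phase gene was higher and 1 immediate early gene lower. The stricter cell filter gave 1 S phase gene lower. Absence of a 2-fold difference does not show that these levels were equal.

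Genes of hormone-sensing luminal cells were on balance lower in members, and those of luminal progenitors higher. Among 14 measured hormone-sensing genes 3 were 2-fold lower and 1 higher, with a median of -0.57. The lower ones were Calca at 505 (475 to 536) against 1410.2 (1363 to 1459) CPM, Fgb, and Areg, the EGF receptor ligand that relays estrogen signals, at 919.7 against 1862 CPM. Ly6a (Sca-1), a marker of hormone-sensing cells that interferon also induces, went the other way at 1688 against 495 CPM. Among 12 luminal progenitor and milk genes 5 were higher and 1 lower, with Mfge8 at 363 against 71.6 CPM and the casein Csn3 at 957 against 373 CPM. The 5 higher became 2 with at least 1000 genes and at most 5% mitochondrial UMIs, with a median of 0.14 in place of 0.64, and 2 when every cell weighed the same. Of 4 measured basal genes 3 were lower, but 9 comparison cells held all 251 Acta2 UMIs. These levels cannot separate a shift in the mix of luminal cells from a change within them. Each lineage was also taken on its own, by a score that shares genes with these lists.

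Keratin cells were divided by whether UMIs of Esr1, Pgr, Prlr, Areg and Cited1 outnumbered those of Kit, Elf5, Aldh1a3, Csn3 and Wfdc18. Areg was lower in members also within hormone-sensing-scored cells, at 1160 against 2031 CPM. A cell with less Areg is more easily scored as progenitor. The split and its shares therefore cannot separate a shift in the mix from a change within cells. The rule was met by 314 of 965 hormone-sensing-scored cells (32.5%, 29.6 to 35.6%) and by 82 of 153 progenitor-scored cells (53.6%, 45.4 to 61.7%). After thinning to 2000 UMIs the shares were 24.1% (21.2 to 27.2%) of 826 and 44.4% (35.4 to 53.5%) of 124. The intervals did not overlap, though both lineages come from 1 library. Progenitor-scored cells made up 20.3% of members and 8.41% of comparison cells.

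The core of the response was shared by the lineages. At a minimum of 50 CPM, 86 of 2759 genes (3.12%) were 2-fold higher and 14 (0.507%) lower in hormone-sensing-scored members, and 185 of 3168 (5.84%) higher and 173 (5.46%) lower in progenitor-scored members, for which only 46 comparison cells were available. Of 2459 genes measured in both, 77 were higher in the first and 137 in the second, and 53 in both, which is 68.8% and 38.7% of each list. The shared genes included Gbp2, Gbp3, Irf7, Isg15, Psmb8, Tap1, Cd74, H2-Aa, H2-Ab1, Cxcl10, Ccl5 and Ly6a. Gbp2 stood at 1246 CPM in hormone-sensing-scored and 1424 CPM in progenitor-scored members, against 101 and 126 CPM.

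Several targets leaned to one lineage. Ido1, a rule gene, stood at 416 CPM (385 to 449.6) and in 65.6% of hormone-sensing-scored members, and at 39.7 CPM (24.3 to 61.4) and in 7.32% of progenitor-scored members. Cxcl10 was the reverse, at 428 CPM (397 to 462) and 1399 CPM (1297 to 1506), and Vcam1 had 74 of its 94 member UMIs in progenitor-scored members, at 147 CPM against 5.12 CPM in hormone-sensing-scored members. Ccl2, a monocyte chemokine, stood at 159 CPM in progenitor-scored and 19.8 CPM in hormone-sensing-scored members. For Cd74, hormone-sensing-scored cells went from 16.5 CPM without rule UMIs to 934 CPM in members, and progenitor-scored cells from 317 to 1921 CPM. Calcb was found mainly in hormone-sensing-scored members, at 256 CPM against 10.1 in their comparison cells, and at 11.9 CPM in progenitor-scored members. No interaction could be tested with 1 library.

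**Figure D3:**
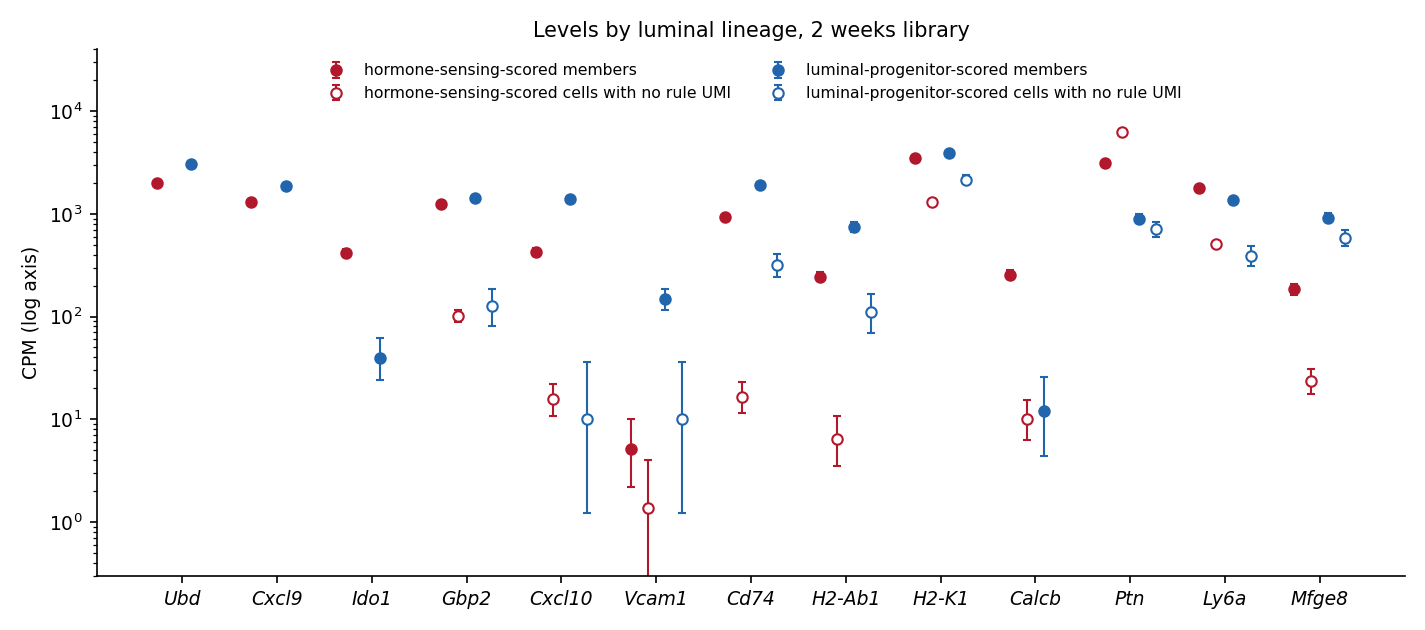
CPM (log axis) of 13 genes in hormone-sensing-scored (red) and luminal-progenitor-scored (blue) cells of the 2 weeks library, filled for members and open for cells with no rule UMI; bars are 95% Poisson intervals, and classes with no UMI are not drawn. Ido1 and Calcb are higher in hormone-sensing-scored members and Cxcl10 and Vcam1 in progenitor-scored members, and Gbp2 is similar in both lineages.

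Several lower and milk genes differed between the whole library and its lineages. Ptn, a growth factor and the most abundant lower gene, stood at 2547 (2479 to 2616) against 5742 (5647 to 5839) CPM in all. Within hormone-sensing-scored cells it stood at 3124 against 6246 CPM, and within progenitor-scored cells at 898 against 709 CPM. Calca, which encodes calcitonin and the neuropeptide CGRP, stood at 594 against 1526 CPM in hormone-sensing-scored cells, while the paralog Calcb, a second CGRP gene, stood at 219 against 9.16 CPM in all. The milk and antimicrobial protein Lcn2 stood at 315 against 157 CPM in all, but at 19.8 against 38.1 CPM within hormone-sensing-scored and 1248 against 1447 CPM within progenitor-scored cells. Wnt agonist Rspo1, at 58.9 against 13.3 CPM in all, had 1 UMI in hormone-sensing-scored members. Mfge8, in contrast, was higher in members of both lineages, at 184 against 23.4 and 919.8 against 583 CPM.

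Of the 12 genes with the largest downward ratios, several owed it to few cells. The protease gene Ctsr had 299 UMIs in comparison cells, 82.3% of them in 10 cells, and 28 UMIs in members. Krt14, a basal keratin, had 91.1% of its 157 comparison UMIs in 10 cells, while Apoe had 75.5% of 330. Cells with 5 or more UMIs of Acta2, Krt14 and Krt5 numbered 13 of the 547 comparison cells and 5 of the 404 members. Other genes were detected in a smaller share of members, with the lineages pooled. Ptn was found in 94.0% of comparison cells and 81.4% of members, and Gpx3, a secreted peroxidase, in 46.8% and 27.5%. Abcc3, an export pump, was found in 20.1% and 3.71%, and Crym in 16.3% and 4.21%. By lineage, Ptn was found in 99.6% of hormone-sensing-scored comparison cells and 94.3% of such members. In progenitor-scored cells these shares were 34.8% and 34.1%. The part of the lineage mix in the pooled shares was not tested.

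The response was graded with the level of the rule genes. Keratin cells with at least 2000 UMIs were thinned to that depth and grouped by rule UMIs into 552 cells with 0, 164 with 1 or 2, 144 with 3 to 9 and 119 with 10 or more. Gbp2 stood at 162, 476, 989.6 and 2597 CPM in these groups. The interferon gamma list without the rule genes summed to 1130.4, 2415, 4323 and 9202 CPM, and the type I list to 2718, 4101, 5361 and 7727 CPM. Because the rule genes come from the interferon gamma list, the steepness of these lists is not a like comparison. MHC class II genes summed to 206, 595, 1778 and 4214 CPM. In the other direction, Ptn stood at 5718, 4046, 2872 and 1588 CPM and Calca at 1312, 628, 469 and 231 CPM. Areg was alike in the first groups, at 1794 and 1753 CPM, and then 903 and 466 CPM. These groups pool the lineages, and the part of the lineage mix was not tested. Ptn, Calca and Areg were lower in hormone-sensing-scored members than in their comparison cells. In progenitor-scored members they stood at 898, 258 and 238 CPM, against 708, 307 and 226 in comparison cells. Krt8 stayed between 2899 and 2955 CPM.

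**Figure D4:**
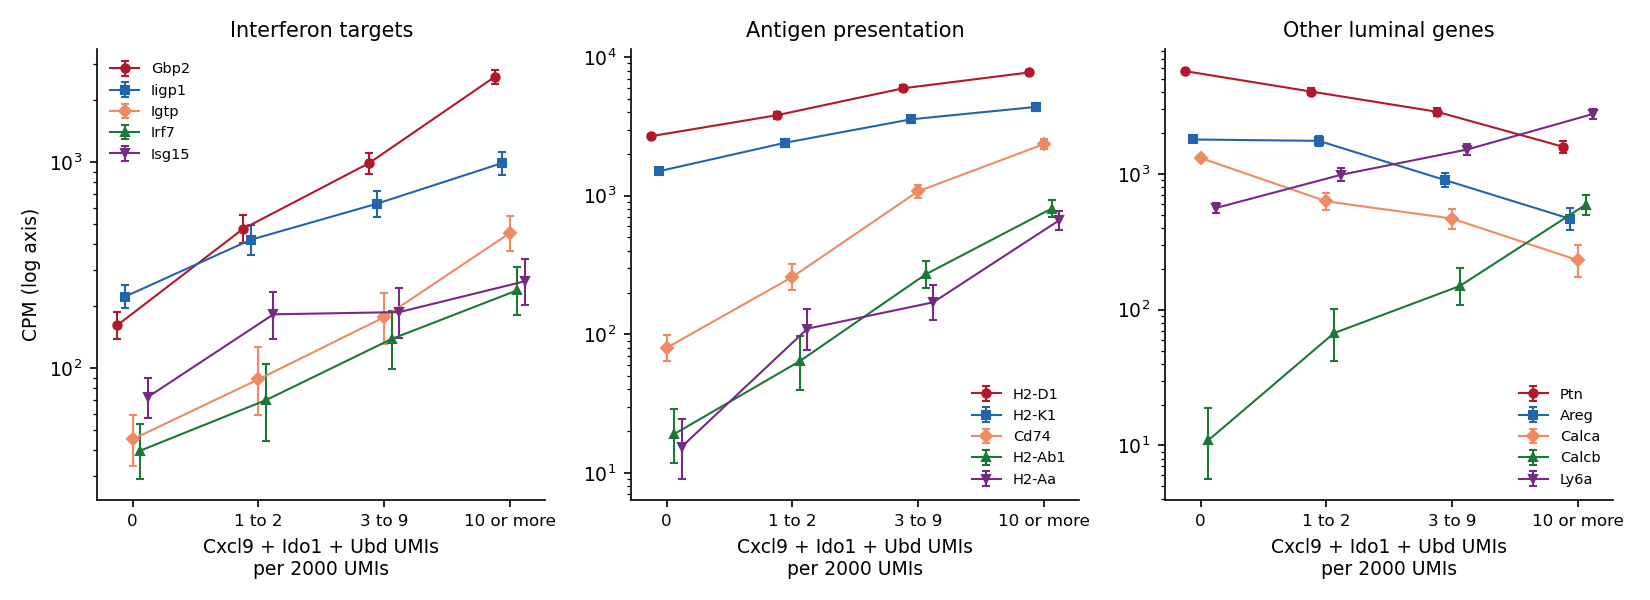
CPM (log axes) of 15 genes in 2 weeks keratin cells thinned to 2000 UMIs each, grouped by the rule UMIs left after thinning (horizontal axis); points are sums over the cells of a group and bars 95% Poisson intervals. Gbp2 and Cd74 climb over all 4 groups, from 162 to 2597 and from 79.7 to 2357 CPM, while Ptn, Areg and Calca descend. The groups pool both luminal lineages.

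Thinning moves some members into the lower groups, so these groups are not the classes compared above. The 182 cells left out of both classes stood at 317 CPM for Gbp2 and 145 CPM for Cd74, between the 2 classes, but at 13.8 CPM for Cxcl10, near the 14.99 of the comparison cells. Cell by cell, across 979 thinned keratin cells and 4321 genes, the genes whose log-scaled counts were most like the rule-gene sum were Gbp2 (Pearson r = 0.67), Cd74 (0.57), H2-D1 (0.52), H2-K1 (0.52) and Ly6a (0.50), followed by H2-Ab1, Cxcl10, Ifitm3, H2-Aa, Psmb8, Cyba, Ifi47, Gbp4, Calcb and AW112010 at 0.41. These cells share 1 library and the values are a description.

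Targets differed in how many members carried them. Ccl5 was found in 62 members (15.3%), up to 258 UMIs in a cell, and 40 cells held 98.1% of its 1304 UMIs. Cxcl10 was found in 130 members, Cd74 in 231, and Ifit1, which binds viral RNA, in 40. By contrast H2-K1, H2-D1 and Ifitm3 were each found in 403 of 404. The 62 members with a Ccl5 UMI had fewer UMIs than the other 342 members, with a median of 4430.5 against 4906.5. They nonetheless stood higher in Cxcl10 at 2185 against 457 CPM, Isg15 at 589.97 against 169 CPM, Ifit1 at 273 against 31.9 CPM and Rsad2, an antiviral enzyme, at 399.7 against 27.4 CPM. Their luminal progenitor and milk genes summed to 8596 against 2879.8 CPM, so lineage moved with Ccl5, and its part in these differences was not tested.

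Rule genes were also found outside the keratin gate. Of 105 cells with no Krt8 or Krt18 UMI, at a median depth of 4203 UMIs, 16 had any rule UMI (15.2%, 8.97 to 23.6%) and 10 had at least 3. Over all 105, Ubd stood at 40.6 CPM, Cxcl9 at 107 and Gbp2 at 73.6, against 2302, 1547 and 1329.9 in members, and Ido1 had no UMI. Members were chosen on Ubd, Cxcl9 and Ido1, so their levels are not a like comparison for these 105 cells, which the rule did not choose. Among all 1133 keratin cells, taken without regard to the rule, 586 had any rule UMI (51.7%, 48.8 to 54.7%) and 404 at least 3. The absence of Ido1 UMIs in the 105 cells allows a share of cells with one of up to 3.45% by the exact interval. The 105 cells also held leukocyte transcripts, with Cd74 at 777 CPM, Lyz2 at 117 CPM and Tyrobp at 42.1 CPM. Their rule UMIs can therefore not be read as free RNA alone.

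In the other libraries the same rule selected few keratin cells. At 5 months 14 of 431 met it (3.25%, 1.79 to 5.39%), in tumour 1 24 of 397 (6.05%, 3.91 to 8.86%) and in tumour 2 4 of 415 (0.964%, 0.263 to 2.45%). Tumour cells were deeper, and after thinning to 2000 UMIs the shares were 0.990% (0.270 to 2.52%), 0.336% (0.00850 to 1.86%) and 0 of 286, which allows up to 1.28%. All 3 lay below the 27.1% at 2 weeks. The sort differed between libraries, and age, library and sort cannot be told apart. Between 2 and 7 cell barcodes of the 2 weeks library recurred in another library.

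**Figure D5:**
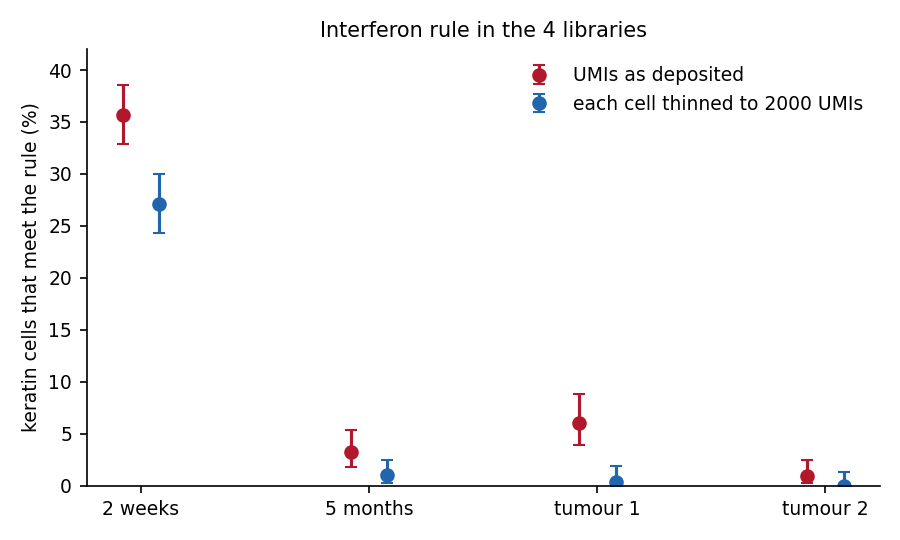
Share of keratin cells (%) with at least 3 UMIs of Cxcl9, Ido1 and Ubd in each of the 4 libraries, with UMIs as deposited (red) and with each cell thinned to 2000 UMIs (blue); bars are exact 95% binomial intervals over cells of 1 library. The 2 weeks library stands at 35.7% and 27.1% and the other libraries at 6.05% or less.

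The cells that met the rule outside the 2 weeks library carried a different mix of these genes. Ido1 had no UMI in any of them. Ubd stood at 628 CPM in the 14 cells of the 5 months library, at 213 CPM in the 24 of tumour 1 and at 227 CPM in the 4 of tumour 2, and Cxcl9 at 148, 145 and 0 CPM. Gbp2 stood at 203 against 31.2 CPM in rule cells and cells without rule UMIs at 5 months, at 229 against 35.8 in tumour 1, and at 2 UMIs in tumour 2. Cd74 did not follow: it stood at 139 against 314 CPM at 5 months, 242 against 285 in tumour 1 and 114 against 116 in tumour 2. The macrophage gene Tyrobp, at 0 in 2 weeks keratin cells, stood at 20.2, 108.2 and 126.7 CPM in the cells without rule UMIs of these libraries, and its part in their Cd74 level was not tested.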

How the data were processed

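The files hold counts of UMIs per gene and barcode that the authors deposited as 1 matrix per library. Per the labels' protocols, libraries were prepared with version 2 of the 10x Chromium 3′ chemistry. Per the submitters' processing notes, Cell Ranger was run with the mm10 (GRCm38) genome; its version is not given in the sources used here. Totals were 6722044, 14369203, 23736366 and 13061942 UMIs at 2 weeks, 5 months, tumour 1 and tumour 2 over 27998 shared genes.

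UMIs were summed over the cells of a class and divided by the class total (CPM), with 95% Poisson intervals; shares have Clopper-Pearson intervals. A gene counted as higher or lower at 2-fold, computed on CPM + 1, if the class with more reached 20 CPM (50 CPM within a lineage). Thinning drew 2000 UMIs per cell without replacement. The comparison was run on simulated class totals with changes larger than 2-fold and no variation between cells. That simulation does not check calls near 2-fold or genes held by few cells. Doublets were scored with Scrublet (scanpy 1.11.5), which called 4 in the 2 weeks library; they were kept, and removing the 15 highest scores is among the alternatives. Python 3.11.15, numpy 2.4.6 and scipy 1.17.1 were used.

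Members and gene lists were chosen with earlier results of these data known. Genes named are the rule genes and Gbp2, up to 6 per list with the largest absolute log2 ratio, the 12 highest and 12 lowest with at least 50 CPM, and the 15 most like the rule sum. Genes named beyond this were chosen after their values were seen. Gene positions are from a RefSeq gene table.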

Additional observations from a re-analysis of the deposited data

How the results depend on the processing

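With 1 library at 2 weeks, no replicate could be left out. No paired analysis was possible because the groups share fewer than 2 replicate numbers and the result comes from no test. The share of keratin cells meeting the rule was 29.6% with the rule at 5 UMIs, 47.6% with at least 1000 genes and at most 5% mitochondrial UMIs, and 27.1% after thinning, against 35.7%. The 236 genes that differed by 2-fold became 494 when the rule was applied after thinning, 408 when the same cells were thinned and 1229 with no filter on low values, and the genes on the lists went from 104 to 158 with no filter. Higher genes made up 83.5% of the calls, 71.7% and 70.6% in the thinned settings, 73.3% with the stricter cell filter and 57.5% with no filter. Thinned detection of Gbp2 was 75.3% with another seed and 86.9% without thinning, both chosen after seeing the data, against 73.6%. In hormone-sensing-scored cells only, which leaves out progenitor-scored cells, the log2 ratios of Rspo1 and Lcn2 reversed to -0.23 and -0.91. The Rspo1 value rests on 1 UMI in members and 2 in comparison cells. Over 53 named genes and 12 settings, 510 log2 ratios stayed within the counting interval of the value reported. Beyond it moved 124, and the 2 of Rspo1 and Lcn2 reversed. Median-of-ratios scaling shifted all log2 ratios by 0.02. Depth limits genes under about 20 CPM, such as Ciita and Cd274.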

Other observations

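Of 2459 genes measured in both lineages, 2 were 2-fold higher in one and 2-fold lower in the other, Ccnd1 and Ly6d. Among these 2459, hormone-sensing-scored members had 77 genes higher and 7 lower, and progenitor-scored members 137 and 53. Whether 2 exceeds the overlap that such counts give by themselves was not tested. Ccnd1, the cyclin D1 gene, stood at 167 CPM in hormone-sensing-scored members and 64.3 CPM in their comparison cells, and at 119 against 256 CPM in progenitor-scored cells. Ly6d stood at 1299.6 against 539 CPM and at 556 against 1146 CPM. AW112010, a transcript known to be induced by interferon, was among the most abundant, at 11564 against 3381 CPM in hormone-sensing-scored cells and 1873 against 151 CPM in progenitor-scored cells. The progenitor-scored comparison rests on 46 cells without rule UMIs, and no difference between lineages was tested.

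Ribosomal protein genes, a group added after the data were seen, summed to 242887 CPM in members and 276751 CPM in comparison cells, with a median log2 ratio of -0.20 over 83 genes and none at 2-fold. Decorin (Dcn), listed as a fibroblast gene, stood at 358 against 129 CPM and was found in 35.9% of members, while 5 of the 9 fibroblast genes were at 0 in members. Of 129 barcodes set aside for more than 10% mitochondrial UMIs, at a median of 1733 UMIs, 21 had at least 3 rule UMIs.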
